A study of Mus musculus with 4 samples.

Results

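Amylin and its relatives form a small family of peptide hormones that share receptors, and 9 of its genes were followed here in RNA of mouse pancreatic islets. They were chosen by symbol from the 55536 genes of the deposited count table and comprise 4 ligand genes (Iapp, Adm, Calca and Calcb), 2 receptor genes (Calcr and Calcrl) and 3 genes of receptor accessory proteins (Ramp1, Ramp2 and Ramp3). All 9 symbols were found, 8 had at least 1 count in some library, and 7 passed the filter on low counts and were tested.

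The libraries were bulk RNA-seq of polyadenylated RNA from islets of male C57BL/6 mice aged 8 weeks. There were 2 non-depleted libraries and 2 insulin-depleted libraries, in which insulin sequence was removed during library preparation with the DepleteX insulin panel of Jumpcode Genomics. The protocol text also describes dissociation for single-cell work and does not say whether the bulk islets were dissociated. The treatment acts on the sequencing library and not on the animals, and the labels name no allele, diet or drug that differs between the groups. The labels call the libraries of a group biological replicates, and no source used here says whether they came from separate animals, so p-values measure only the spread between these libraries. Below, N1 and N2 stand for non-depleted replicates 1 and 2, and D1 and D2 for insulin-depleted replicates 1 and 2. The column names of N1 and N2, unlike those of D1 and D2, mention size selection, and a difference of that kind cannot be told apart from depletion. All 4 column names carry a further tag in common, which no source used here explains.

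Amylin (islet amyloid polypeptide) is made by beta cells and released with insulin from the same granules. Its relatives are calcitonin and the calcitonin gene-related peptides (CGRP), which come from Calca and Calcb, and adrenomedullin, a vasodilator peptide. These peptides act through 2 class B G-protein-coupled receptors, whose ligand preference is set by the receptor activity-modifying proteins (RAMPs). The calcitonin receptor with a RAMP is an amylin receptor. The calcitonin receptor-like receptor is a CGRP receptor with RAMP1 and an adrenomedullin receptor with RAMP2 or RAMP3.

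The kinship of amylin and CGRP can be read in their coding sequence. The longest stretch of Iapp that aligned without a gap to the CGRP transcript of Calca (Calca-201) covered 36 bases, of which 29 were identical (80.6%), and the stretch aligned to Calcb covered 39 bases with 31 identical (79.5%). The stretches are shown because they hold the closest match between the amylin and CGRP genes. They are written 5′ to 3′ on the coding strand, from GENCODE transcripts of GRCm38, with capitals for bases identical in the pair (Iapp against Calca, Calca against Iapp, Calcb against Iapp). Each lies within 1 coding exon, at chr6:142303337-142303372 on the plus strand for Iapp, chr7:114632542-114632577 on the minus strand for Calca and chr7:114721997-114722035 on the plus strand for Calcb.
Iapp: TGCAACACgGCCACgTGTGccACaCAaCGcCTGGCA
Calca: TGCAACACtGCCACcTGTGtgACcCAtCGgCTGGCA
Calcb: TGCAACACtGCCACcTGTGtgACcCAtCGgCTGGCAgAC
The calcitonin transcript of Calca (Calca-202) aligned to Iapp with a score of 8, against 22 for Calca-201 and 23 for Calcb-203 (1 per identical base, minus 1 per mismatch). Calcitonin and CGRP are spliced from the same Calca gene, and counts per gene do not separate them. For Adm the best local alignment to Iapp was 12 bases with 11 identical. It starts at coding base 9 of 279 in Iapp and 531 of 552 in Adm. These lie near opposite ends of the coding sequences, so the match is not read as kinship.

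The unit of level is CPM, counts of a gene per 1000000 counts of its library. Ins1 and Ins2 were left out of the library total, so that the removal of insulin does not itself raise every other gene. These totals were 48510880 counts in N1, 58127371 in N2, 19278430 in D1 and 64858544 in D2. Insulin took 3.97 to 4.14% of all counts without and 0.195 to 0.264% with depletion. Low counts were mostly even in these libraries, and so were 17 of the 21 member values above 0 and under 1000 counts, a pattern that arises if the 2 reads of a fragment each add a count. Poisson intervals and limits of detection below therefore take counts as pairs. For a count of 0 in a library the limit was set at 3 pairs, or 6 counts, which is 0.0925 to 0.311 CPM. The Poisson 95% intervals of a count of 0 reach higher, to 0.114 to 0.383 CPM.

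Iapp dominated the family. It had 910097 and 1011159 counts in the non-depleted libraries, which made it the gene with rank 2 behind Ins2 in both, and 355594 and 1138363 counts in the insulin-depleted libraries, where it had rank 1. Its level was 18761 CPM in N1, 17396 in N2, 18445 in D1 and 17552 in D2. The groups overlapped, and in each group replicate 1 was the higher library. The group means of 18078 ± 965 and 17998 ± 632 CPM (SD, n = 2 each) differed by less than that spread. The fitted log2 fold change of insulin-depleted over non-depleted was -0.01 with an SE of 0.10 (edgeR quasi-likelihood test, adjusted p = 1.00). Its 95% interval ran from a 0.836-fold to a 1.18-fold level, and differences within it were not detectable with this fit. The fit took no account of the replicate number. Within the same number, the Iapp level with depletion was 0.983 times that without for number 1 and 1.01 times for number 2. Iapp (ENSMUSG00000041681) lies on chromosome 6 from 142298423 to 142303961, plus strand, within the span of Slco1a5 on the other strand but without shared exons.

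The ratio of amylin to insulin counts did not overlap between the groups. N1 and N2 had 0.435 and 0.421 Iapp counts per insulin count (Ins1 plus Ins2), and D1 and D2 had 9.42 and 6.64. The groups lay far apart, and the spread between replicates was wider after depletion. The means were 0.428 ± 0.0095 and 8.03 ± 1.97 (SD, n = 2 each), a ratio of 18.8. Against Ins2 alone the 2 means were 0.568 ± 0.0371 and 8.46 ± 2.12, and against Ins1 alone 1.75 ± 0.193 and 160 ± 23.8 (SD, n = 2 each). The level of Iapp itself, given above, overlapped between the groups. Since the denominator is the transcript that the treatment removes, this separation restates the depletion and is no result about Iapp. The exact two-sided permutation p of 0.333 for each of the 3 ratios, the smallest that 2 against 2 libraries allow (0.556 adjusted over 5 comparisons of Iapp ratios and shares), adds nothing to it.

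Iapp took 1.80 and 1.67% of all gene counts in N1 and N2 (exact Clopper-Pearson 95% intervals 1.795 to 1.802% and 1.667 to 1.674%). In D1 and D2 it took 1.84 and 1.75% (1.835 to 1.847% and 1.747 to 1.754%). Such intervals reflect counting error alone. The group means of 1.73 ± 0.0904% and 1.80 ± 0.0639% (SD, n = 2) lay closer together than the replicates of either group (exact two-sided permutation p = 0.667, 0.833 adjusted). Of counts other than insulin, the shares were 1.81 ± 0.0965% and 1.80 ± 0.0632% (SD, n = 2, exact two-sided permutation p = 1.00).

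**Figure D1:**
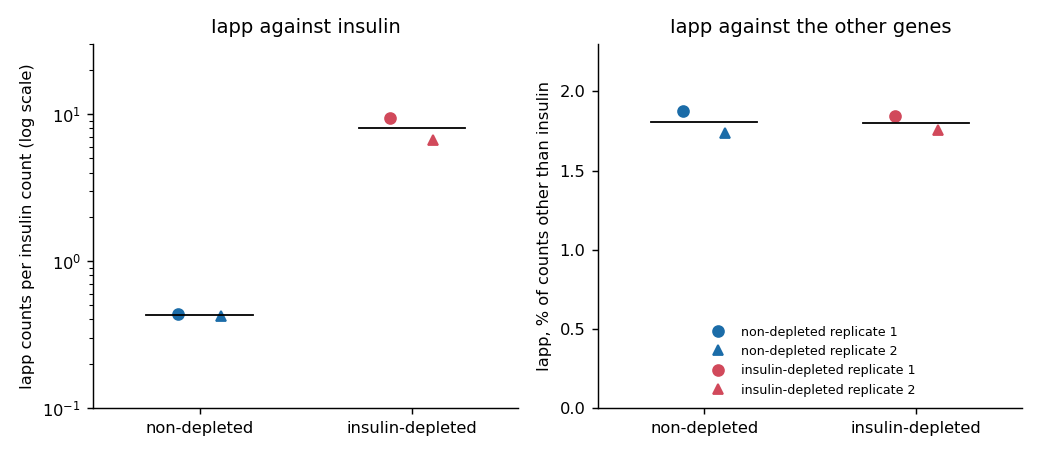
Iapp counts per insulin count (left, log scale) and Iapp as a percentage of counts other than insulin (right) in each library, with circles for replicate 1, triangles for replicate 2 and a black line at each group mean. The left values sit at 0.421 and 0.435 without and at 6.64 and 9.42 with depletion, while the right values overlap between 1.74 and 1.88%.

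The depletion panel is aimed at Ins1 and Ins2, so the transcripts of the 9 genes were searched for stretches shared with them on either strand. No run of 20 bases was shared between any of the 9 genes and either insulin gene. The longest run shared by Iapp was 12 bases with Ins1 and 9 bases with Ins2, and over the 9 genes the longest run was 13 bases. Ins1 and Ins2 share a run of 56 bases with each other. The guide sequences of the panel were not used here, and such a search describes the transcripts only.

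Adrenomedullin (Adm), a peptide made by many cell types and known for its action on blood vessels, was the next ligand. Adm (chromosome 7, 110627661 to 110629820, plus strand) had 254, 364, 152 and 478 counts in N1, N2, D1 and D2. Its level was 5.24 CPM in N1, 6.26 in N2, 7.88 in D1 and 7.37 in D2. D1 and D2 both lay above N1 and N2, with means of 5.75 ± 0.726 and 7.63 ± 0.364 CPM (SD, n = 2 each). It was the only one of the 9 genes whose groups did not overlap, and 10.2% of all 19723 genes tested lay that way, with another 9.33% the other way. The log2 fold change was 0.40 (SE 0.18, 95% interval -0.04 to 0.84), with an unadjusted p of 0.0678 and an edgeR adjusted p of 1.00. Adm therefore did not pass the test.

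Within the same replicate number, the Adm level with depletion was 1.51 times that without for number 1 and 1.18 times for number 2. With counts taken as pairs, the exact Poisson 95% interval was 4.36 to 6.23 CPM in N1 and 6.21 to 9.87 CPM in D1, so these barely met. The intervals of N2 and D2, 5.39 to 7.24 and 6.47 to 8.37 CPM, overlapped.

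Calca, whose peptides are calcitonin of thyroid C cells and CGRP of sensory nerves, was near the lower end of what these libraries resolve. Calca (chromosome 7, 114631478 to 114636357, minus strand) had 40, 52, 16 and 64 counts in the same order of libraries, or 0.825, 0.895, 0.830 and 0.987 CPM. The groups overlapped. The means of 0.860 ± 0.0495 and 0.908 ± 0.111 CPM (SD, n = 2 each) gave a log2 fold change of 0.09 (SE 0.33, edgeR adjusted p = 1.00) with a wide 95% interval, from -0.74 to 0.93.

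Calcb, the gene of beta-CGRP (chromosome 7, 114718643 to 114723365, plus strand), had 0 counts in N1 and D1 and 2 counts in N2 and D2. It was not tested, and 2 counts may be 1 read pair. Transcripts of Calca and Calcb share a run of 61 bases, and 3.59% of the 20-base stretches of Calca and 4.76% of those of Calcb are found in the other, so reads there are uncertain between the 2 genes.

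The calcitonin receptor gene Calcr, which encodes the core of the amylin receptor, had 0 counts in all 4 libraries. The limit of 3 pairs (6 counts) is 0.124 CPM in N1, 0.103 in N2, 0.311 in D1 and 0.0925 in D2. The Poisson 95% intervals, with counts taken as pairs, reach 0.152, 0.127, 0.383 and 0.114 CPM in the same order. Calcr (chromosome 6, 3685680 to 3764714, minus strand) has 5 annotated protein-coding transcripts and a union of exons of 3912 bases. Calcr was not detectable at these depths without or with depletion.

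The receptor-like gene Calcrl, known as a receptor of endothelial cells, was detected in every library. Calcrl (chromosome 2, 84330626 to 84425411, minus strand) had 2511, 2749, 1073 and 3080 counts in N1, N2, D1 and D2, and its levels were 51.8, 47.3, 55.7 and 47.5 CPM in that order. Replicate 1 was higher than replicate 2 in both groups, and the groups overlapped. Group means were 49.5 ± 3.16 and 51.6 ± 5.78 CPM (SD, n = 2 each), with a log2 fold change of 0.05 (SE 0.12, edgeR adjusted p = 1.00) and a 95% interval from -0.25 to 0.36. With Calcr set to 6 counts in each library, Calcrl was 143-fold higher per kb of exon in D1, the shallowest library. In the others it was 335-fold to 411-fold higher.

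Ramp3, the partner of Calcrl in an adrenomedullin receptor, was the most abundant accessory gene. Ramp3 (chromosome 11, 6658521 to 6677475, plus strand) had 17.7, 16.3, 17.5 and 16.6 CPM in N1, N2, D1 and D2. The groups overlapped, and the means were 17.0 ± 1.00 and 17.0 ± 0.630 CPM (SD, n = 2 each), with a log2 fold change of -0.0032 (SE 0.12, edgeR adjusted p = 1.00). It shares exon positions with Gm11978 on the other strand, and no source used here says whether strand was used in counting.

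Ramp2, the other adrenomedullin receptor partner (chromosome 11, 101246028 to 101259546, plus strand), had 4.70, 4.95, 4.77 and 5.09 CPM in the same order. The replicates of a group differed by more than the group means, which were 4.83 ± 0.180 and 4.93 ± 0.223 CPM (SD, n = 2 each, log2 fold change 0.03, SE 0.18, edgeR adjusted p = 1.00). Some of its annotated exons overlap those of Vps25 on the same strand, so reads there are uncertain between these genes.

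Ramp1, the partner of Calcrl in the CGRP receptor, had the largest ratio between replicates of the 7 tested members in both groups. Ramp1 (chromosome 1, 91179822 to 91225196, plus strand) had 98, 209, 48 and 220 counts, or 2.02, 3.60, 2.49 and 3.39 CPM, in N1, N2, D1 and D2. Replicate 2 was the higher library in both groups, by 1.78 times without and 1.36 times with depletion. With counts taken as pairs, the Poisson 95% intervals of 1.49 to 2.67 and 2.94 to 4.35 CPM did not overlap between the non-depleted replicates, and those of 1.60 to 3.70 and 2.79 to 4.09 CPM did between the insulin-depleted ones. The groups overlapped, with means of 2.81 ± 1.11 and 2.94 ± 0.638 CPM (SD, n = 2 each, log2 fold change 0.08, SE 0.35, edgeR adjusted p = 1.00). Leaving out 1 library turned the sign of that value, from -0.26 without N1 to 0.54 without N2, but also left the replicate numbers unbalanced. Within the same number, the Ramp1 level with depletion was 1.23 times that without for number 1 and 0.943 times for number 2.

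In the test of depletion, 0 of the 7 tested members were called in either direction (edgeR, adjusted p under 0.05), and 0 had an unadjusted p under 0.05. DESeq2 called 0 members as well. Over all 19723 genes tested, 0.0101% were called, which are Ins1 and Ins2, and 0.416% had an unadjusted p under 0.05. Evenly spread p-values would put a share of 0.05 there, so p-values ran high in this fit, which left out the replicate number. The median log2 fold change was 0.05 over the 7 members, with 5 above and 2 below 0, and -0.0025 over all genes tested, with 9623 above and 10100 below 0. With so few genes called in all, a count of 0 among 7 members is no result about the members.

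**Figure D2:**
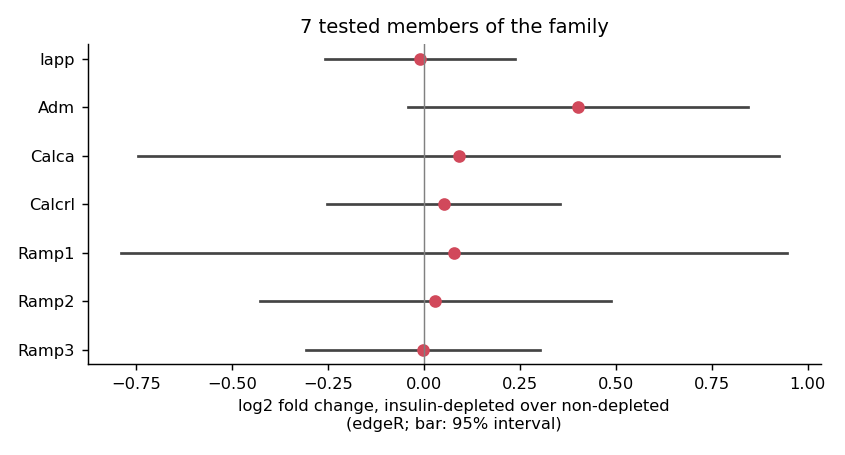
Log2 fold change of insulin-depleted over non-depleted libraries (x axis) for the 7 tested members, with points for edgeR estimates and bars for 95% intervals. Every interval includes 0, the narrowest being that of Iapp (-0.26 to 0.24), and the point of Adm (0.40) lies farthest from 0.

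Levels of different genes can be compared only per length, for which CPM were divided by the length of all annotated exons of a gene. Averaged over the 4 libraries, the level per kb ran in the order Iapp (18520 CPM per kb), Ramp3 (12.3), Calcrl (10.4), Adm (4.13), Ramp2 (1.48), Ramp1 (0.951), Calca (0.525), Calcb (0.0129) and Calcr (0). Each neighbouring pair from Iapp to Calcb kept this order in 4 of 4 libraries, also with the length of the longest transcript. The lowest value of Ramp3 (11.8) lay just above the highest of Calcrl (11.4), and the lowest of Ramp1 (0.668) just above the highest of Calca (0.586). These 2 pairs lay apart by less than their own range over libraries. Calcb and Calcr did not differ beyond it. With the longest transcript as length, the lowest value of Ramp1 (0.869 in N1) lay below the highest of Calca (0.993 in D2).

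**Figure D3:**
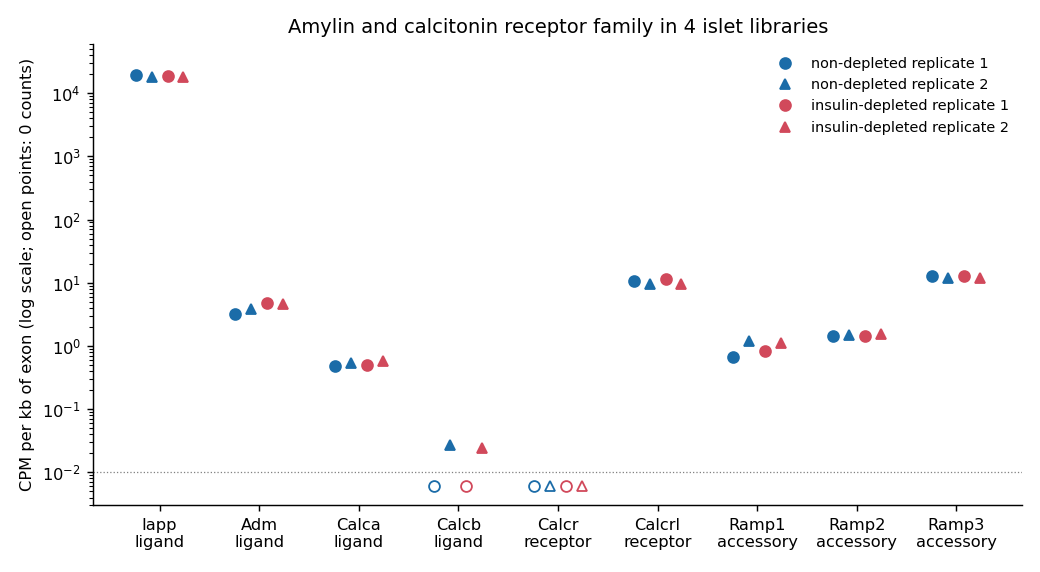
CPM per kb of exon (y axis, log scale) of the 9 genes in each library, with blue for non-depleted, red for insulin-depleted, circles for replicate 1, triangles for replicate 2 and open points below the dotted line for 0 counts. Iapp lies near 18520, Ramp3 and Calcrl lie near 12.3 and 10.4, and Calcr has 0 counts in all 4 libraries.

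Summed by role, ligand transcripts exceeded receptor transcripts by far. The 4 ligands reached 18565 ± 991 and 18484 ± 649 CPM per kb without and with depletion (SD, n = 2 each), the receptors 10.1 ± 0.647 and 10.6 ± 1.18, and the accessory proteins 14.7 ± 0.302 and 14.8 ± 0.178. Iapp made up 99.97 to 99.98% of the ligand sum in each library. The other 3 ligands together had 3.72 and 4.43 CPM per kb in N1 and N2 and 5.36 and 5.16 in D1 and D2, most of it from Adm. Accessory transcripts were 1.31 to 1.51 times receptor transcripts in each library. In bulk RNA, fewer cells of a type and less RNA per cell cannot be told apart, and none of these sums says which cells made the transcripts.

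Ramp3 led the mix of accessory transcripts in all 4 libraries. Its share of the RAMP sum per kb was 86.0% in N1, 81.4% in N2, 84.8% in D1 and 81.9% in D2. Ramp2 held 9.54 to 10.5% and Ramp1 4.48 to 8.21%, with Ramp1 higher in replicate 2 of each group. With the longest transcript as length, Ramp2 was at 18.3 to 19.8% and Ramp3 was at 71.4 to 76.6%, since the exons of Ramp2 cover 3301 bases and its longest transcript 1478. Per kb of exon, Ramp3 was 1.11 to 1.24 times Calcrl, Ramp2 0.127 to 0.158 times and Ramp1 0.0630 to 0.123 times. With the longest transcript as length, these ratios were 1.15 to 1.28 for Ramp3, 0.283 to 0.354 for Ramp2 and 0.0820 to 0.160 for Ramp1.

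**Figure D4:**
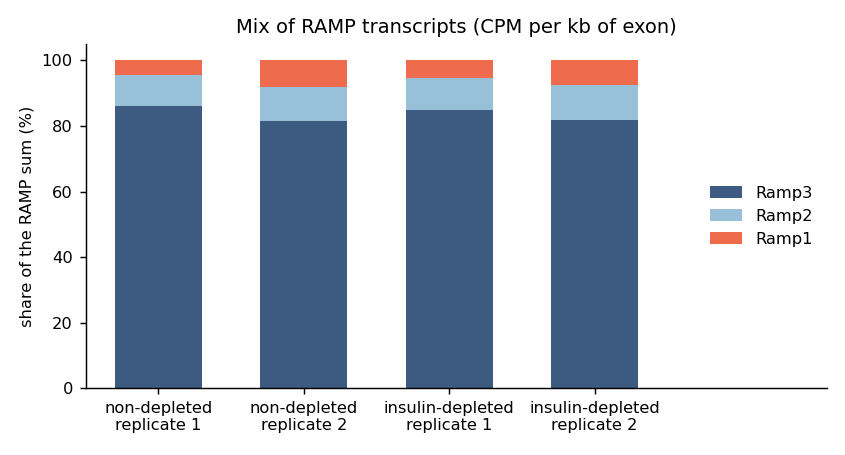
Share of the summed CPM per kb of exon of Ramp1, Ramp2 and Ramp3 (y axis, %) in each library, as stacked bars. Ramp3 takes 81.4 to 86.0% of each bar, and the Ramp1 part is larger in replicate 2 of both groups.

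The levels of 6 of the 7 tested members followed the replicate number. Both libraries numbered 2 lay above both numbered 1 for 3 tested members (Calca, Ramp1 and Ramp2) and below for another 3 (Iapp, Calcrl and Ramp3). Among all genes tested, 34.9% lay above and 26.7% below in this way. For Calca, Ramp2 and Ramp3 the Poisson 95% intervals of all 4 libraries overlapped, with counts taken as pairs. Markers of exocrine acinar cells, which surround islets in the pancreas, also moved with the number. The summed level of 6 acinar markers was 10555 CPM in N1, 4230 in N2, 10560 in D1 and 4245 in D2. The part of these differences in any member's level was not tested.

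The markers of cells that could carry the receptors were present in every library. In each list the 2 genes of highest CPM, not corrected for length, are named. All 8 endothelial markers were detected, and their sum ranged from 968 to 1062 CPM without and from 980 to 1059 CPM with depletion, with Kdr and Flt1, both receptors of vascular endothelial growth factor, at 241 and 240 CPM on average. Replicate 2 was 1.10 and 1.08 times replicate 1 for this sum in the non-depleted and insulin-depleted groups, while it was 0.914 and 0.853 times for Calcrl. The endothelial markers did not all move alike. Of the 8, 6 were higher in both libraries numbered 2 than in both numbered 1, and 1 was lower, like Calcrl. The 4 lymphatic endothelial markers summed to 282 to 318 CPM in both groups, led by Prox1 (169 CPM) and Pdpn (50.6 CPM), genes that are not confined to lymphatic vessels. The 7 stellate, fibroblast and mural markers summed to 235 to 239 CPM without and 228 to 237 CPM with depletion, led by Rgs5 and Col3a1 (102 and 35.3 CPM).

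Markers of immune cells were detected too, and so were some of the sensory neuron list. The 5 immune markers, led by Cd68 and Cd74 (27.3 and 23.3 CPM), summed to 59.9 to 72.1 CPM without and 54.9 to 72.3 CPM with depletion, and replicate 2 was 1.20 and 1.32 times replicate 1 in the 2 groups. Ramp1 was higher in replicate 2 as well, and so were the summed beta-cell (1.08 and 1.07 times), endothelial, lymphatic endothelial (1.13 and 1.13 times) and stellate, fibroblast and mural markers (1.02 and 1.04 times). Both libraries numbered 2 lay above both numbered 1 for 3 of 5 immune, 5 of 6 beta-cell and 3 of 4 lymphatic endothelial markers. In each of these lists 1 marker lay the other way. Of the 7 stellate, fibroblast and mural markers, 1 lay above and 1 below in this way. The part of any of these cell types in the Ramp1 values was not tested. Of 5 sensory neuron markers, 1 (the sodium channel gene Scn10a) had 0 counts in all libraries. Trpv1, at 0.0669 CPM on average, was not tested. The sum of 17.4 to 26.6 CPM without and 17.5 to 27.7 CPM with depletion came mostly from Prph and Tac1 (12.6 and 6.74 CPM). This sum was lower in replicate 2 of each group. Calca was higher there, but its Poisson 95% intervals overlapped in all 4 libraries, with counts taken as pairs. The part of sensory neurons in the Calca values was not tested.

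Endocrine markers were present in every library. The 6 beta-cell markers other than insulin summed to 943 to 1019 CPM without and 940 to 1010 CPM with depletion. The 5 alpha-cell markers summed to 11661 to 13219 and 11480 to 13105 CPM, led by the glucagon gene Gcg and by Ttr (11996 and 262 CPM), and the 3 delta- and gamma-cell markers to 2588 to 3265 and 2537 to 3171 CPM, led by Ppy and Sst (2277 and 596 CPM). The 5 duct markers, led by Spp1 and Krt7 (743 and 358 CPM), summed to 1131 to 1161 and 1122 to 1145 CPM. Ctrb1 and Pnlip had the highest CPM of the acinar markers (2094 and 1855). Ins1 and Ins2 were the only genes called among all 19723 tested, so 0 other markers of the lists given here were called.

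**Figure D5:**
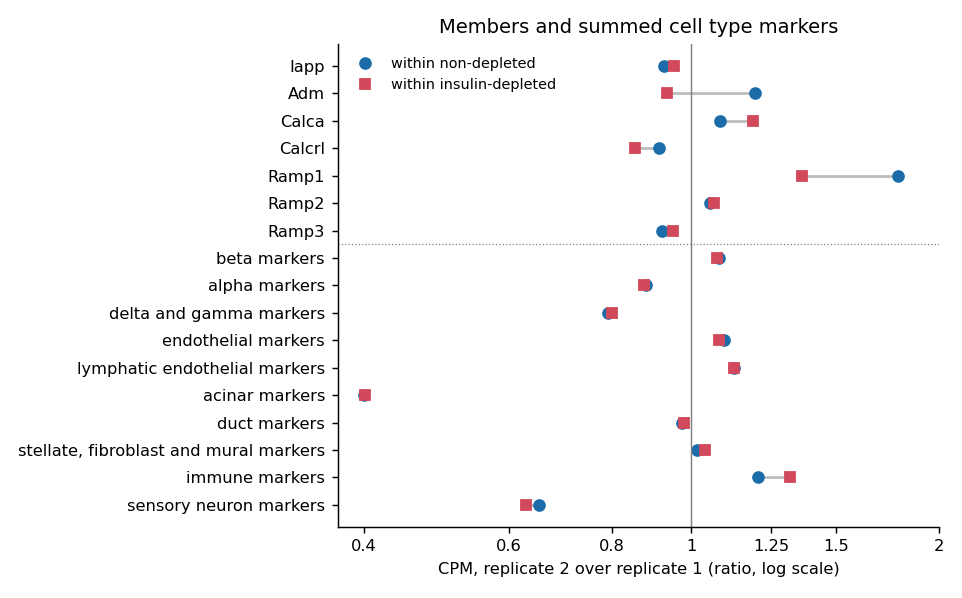
Ratio of CPM in replicate 2 to replicate 1 (x axis, log scale) within the non-depleted (blue circles) and insulin-depleted group (red squares) for the 7 tested members, above the dotted line, and for summed cell type markers (beta-cell markers without Ins1 and Ins2), below it. Ramp1 has the highest ratios of the members (1.78 and 1.36), and acinar markers have the lowest of the lists (0.401 and 0.402).

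Other genes of the amylin and calcitonin pathway were taken from 5 lists. Of these genes 0 were called, beside 0.0101% of all 19723 genes tested, so that count is no result about them. Of 3 further genes of the family, 1 lay above 0 and 2 below on the log2 fold change scale (median -0.01). Crcp, the CGRP receptor component protein, had a log2 fold change of -0.09, the decoy receptor gene Ackr3 0.08 and Adm2, the gene of adrenomedullin 2, -0.01. Per kb of exon, Adm2 had a mean of 8.28 CPM and Ackr3 3.78 CPM over the 4 libraries, beside 4.13 CPM for Adm.

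Of 7 other receptors known to pair with RAMPs, 5 were above and 2 below 0, with a median of 0.04 and a range from -0.55 (Sctr, the secretin receptor gene, SE 0.46) to 0.45 (Crhr1, a receptor gene of corticotropin-releasing hormone, SE 0.29). Those 2 were at 0.627 and 1.47 CPM on average, and neither passed the test. Vipr1, a receptor of vasoactive intestinal peptide, had a mean of 91.3 CPM and a log2 fold change of 0.0065. The calcium-sensing receptor gene Casr had 55.3 CPM and -0.0045, and the glucagon receptor gene Gcgr 15.7 CPM and 0.04. Vipr1 and Casr were at 15.7 and 11.7 CPM per kb of exon, beside 10.4 for Calcrl.

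Amylin is cut from its precursor by prohormone convertases, trimmed by carboxypeptidase E and amidated at its end. Of 6 genes of peptide processing and amidation, 3 were above and 3 below 0, within -0.07 to 0.03. The carboxypeptidase E gene Cpe had a mean of 3200 CPM and a log2 fold change of 0.01. The convertase gene Pcsk2 had 2294 CPM and 0.02, and the amidating enzyme gene Pam 1774 CPM and -0.0026. Per kb of exon, Cpe and Pcsk2 were at 1227 and 290.0 CPM on average, beside 10.4 CPM for Calcrl, and none of the 3 passed the test of depletion.

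Of 4 peptide breakdown genes, 3 were tested, with 1 above and 2 below 0. The endothelin-converting enzyme gene Ece1 had 552 CPM and a log2 fold change of -0.03, the protease gene Bace2 331 CPM and -0.0038, and the insulin-degrading enzyme gene Ide, whose protein also degrades amylin, 126 CPM and 0.0018. The neprilysin gene Mme, at 0.0644 CPM on average, was not tested.

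Of 18 genes of receptor signalling through cyclic AMP and arrestin, 11 were above and 7 below 0, with a median of 0.0050 and a range of -0.33 to 0.13. Prkar1a and Prkacb, subunits of protein kinase A, had 918 and 604 CPM and log2 fold changes of 0.0050 and 0.04, and Gnas, the gene of the stimulatory G protein, 778 CPM and -0.01. Per kb of exon these 3 genes were at 212, 68.9 and 69.6 CPM on average, and Calcrl at 10.4 CPM.

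The genes whose pattern over the 4 libraries was most like that of a member were found by the mean absolute difference of centred log2 CPM among 11591 genes with at least 5 CPM. For Iapp these were Fam210a (0.0017), Slf2 (0.0019), Pabpc1 (0.0034), Tbl1x (0.0036) and Bnip2 (0.0038), against a median of 0.09 over all genes compared. For Calcrl they were Washc5 (0.0027), Gm38394 (0.0030), Srsf10 (0.0043), Rchy1 (0.0053) and Tifa (0.0070), against a median of 0.12. With 4 libraries and so many genes such likeness is a description only, and none of these genes is a fixed marker of beta or endothelial cells.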

How the data were processed

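The authors deposited 1 table of whole-number gene counts for the 4 libraries. For N1 and N2 the deposited values were recorded under the unit expected counts, for a formal reason that concerns a word in their headers. They too are whole numbers, and rounding changed nothing. Per the submitters' processing notes, cutadapt 4.8, STAR 2.7.11b and the build GRCm38 (mm10) are named without roles. How reads were counted, with regard to strand and multiple mapping, is not stated in the labels or header. Columns were matched to N1 and N2 by the missing depletion tag and the final number.

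All 55536 gene identifiers matched the GENCODE M21 annotation of GRCm38, the source of coordinates, lengths and transcripts. Counts were tested with edgeR 4.0.16 (R 4.3.3; filterByExpr, TMM, robust quasi-likelihood fit on group), adjusted by Benjamini and Hochberg over 19723 genes with a threshold of 0.05. The test was checked on simulated counts. DESeq2 1.42.0 was an alternative. Standard errors come from the fold change and the F statistic. Single values were compared by exact permutation, and coding sequences were aligned locally with Biopython 1.88. Poisson intervals are at 95% and cover counting error only. All 9 members are named, with the 3 tested genes of highest CPM from each pathway list, 2 from each marker list given here and the 5 genes most like Iapp and Calcrl. One marker list is not reported here. Mme, Scn10a, Trpv1, Sctr and Crhr1 were named after their values were seen. The members, lists and alternatives were chosen with earlier results of these data known.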

Additional observations from a re-analysis of the deposited data

How the results depend on the processing

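No member was called under any of the 9 other settings of the test (DESeq2, totals without insulin in place of TMM, no filter, replicate block, counts divided by 2, and 4 fits without 1 library each). Among the 7 tested members the adjusted p ranged from 0.999 to 1.00 over all 10 settings. The labels do not say that a replicate number marks a shared animal. Deviations from the group means correlated between libraries of the same number (r = 0.415 over 19721 genes). With the replicate block, 2 genes were called higher and 7 lower over all genes, and Ramp3 was at 0.0032. With totals without insulin, Ramp3 was at 0.0015 and 0 genes were called lower, since Ins1 and Ins2 were not in that table. Without 1 library each, log2 fold changes ranged from -0.074 to 0.060 for Iapp, 0.29 to 0.53 for Adm, -0.045 to 0.18 for Calca, -0.076 to 0.17 for Calcrl, -0.26 to 0.54 for Ramp1, -0.011 to 0.061 for Ramp2 and -0.072 to 0.073 for Ramp3. A fit with 1 library in a group assumes that it varies like the others, and it leaves the replicate numbers unbalanced. The ratio of Iapp to insulin counts, 18.8 times higher with depletion, was 14.9 with Ins2 alone, 91.1 with Ins1 alone (an alternative chosen after seeing the data) and 15.5 to 22.0 without 1 library. The ratio of the Iapp share of all counts (1.04) was 0.996 without insulin in the total and 0.999 to 1.07 without 1 library. The values without 1 library were not tested.

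With the longest transcript as length, non-depleted and insulin-depleted levels per kb were 21547 and 21452 for Iapp, 4.14 and 5.49 for Adm, 0.865 and 0.914 for Calca and 3.27 and 3.34 for Ramp2, and 1.26 for Ramp1 with depletion. The sums were 21552 and 21459 for ligands and 17.2 and 17.4 for accessory proteins. Depth limits Calca, Calcb and Calcr most, and insulin-depleted replicate 1 was the shallowest library.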
